A study of Mus musculus with 32 samples.

Results

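The 9 genes described here, Atf4, Atf5, Atf3, Ddit3, Chac1, Trib3, Asns, Psat1 and Phgdh, belong to the integrated stress response, the stress programme that runs through the transcription factor ATF4. Every array probe annotated with one of these symbols was taken, which gave 13 of 55681 mouse probes on the array and 9 of its 35715 gene names. Each gene is described on its probe with the highest mean level, with the other probes of Atf4, Psat1 and Phgdh beside it. All 13 probes were well above background on all 32 arrays.

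Expression was measured in whole-lung RNA of newborn mice on one-colour Agilent arrays, with 8 groups of 4 mice and a separate array for every mouse. The groups combined an age (P5 or P14), an oxygen level (21% O2 or 85% O2, the latter the hyperoxia model of bronchopulmonary dysplasia, begun at P1) and an injected oligonucleotide (scrambled antimiR or antimiR-34a, which blocks miR-34a). Both oligonucleotides were given into the peritoneum at 10 mg/kg at P1 and P3, so the controls were injected too. The methods name C57Bl/6J mice of both sexes, and lungs were perfused before harvest. The labels place each harvest later by part of a day, name a miRNeasy kit where the methods name peqGOLD, and name isoflurane at P14 where the methods name pentobarbital.

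Several stresses, among them amino acid shortage, haem shortage, viral RNA and misfolded protein in the endoplasmic reticulum (ER), activate kinases that phosphorylate the translation factor eIF2α. Most protein synthesis then falls, while the ATF4 mRNA is translated more. ATF4 raises genes of amino acid uptake and synthesis together with further regulators, and if the stress persists its partner CHOP, the product of Ddit3, favours cell death. Arrays report mRNA only, and neither eIF2α phosphorylation nor ATF4 protein was measured here.

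Levels are log2 values relative to the 75th percentile of the same array, at which the level is 0. A change of 1 is a 2-fold change, and levels of different genes cannot be set against each other. Genes were tested with limma, with a call at a Benjamini-Hochberg adjusted p under 0.05 over all tested probes. Each slide held 1 age at 1 oxygen level, so effects of oxygen or of age cannot be told apart from slide. The antimiR groups shared slides but lay on different rows. In whole lung, fewer cells of a type and less RNA per cell cannot be told apart. The 8 lung epithelial markers (among them Sftpc and Aqp5) were above background on all 32 arrays. A list level is the mean over the genes of a list, each gene taken minus its own mean over the 32 arrays. It is thus a deviation from the average array, on the log2 scale. One mouse, P5 in 21% O2 with scrambled antimiR replicate 4, carried skeletal muscle mRNA at a list level of 4.75, and 3 P14 mice in 21% O2 (scrambled antimiR replicates 1 and 4, antimiR-34a replicate 1) stood apart in fat mRNA or brightness. The results below were recomputed without these 4 arrays. Further arrays also stood apart, all with antimiR-34a, namely replicate 4 of P14 in 85% O2 (adipocyte list level 1.72, the others -2.03 to -1.66), replicate 4 of P14 in 21% O2 (4.96) and the dim array of replicate 3 of P5 in 85% O2 (75th percentile 9.01, the others 9.55 to 9.71). Leaving out all 7 was added after the data were seen.

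ATF4 binds with C/EBP proteins to the C/EBP-ATF response element, written TGATGNAA. In RefSeq promoters (GRCm38.p6, 250 bases before to 50 after a gene's start, both strands searched) the element was found for 4 of the 9 genes. The share was 3.97% over all 32851 promoters of the table, and 1219 of its 27025 genes (4.51%) had it. The 4 stretches of 30 bases around it are shown because these genes had the largest oxygen effects of the 9 at P5 with scrambled antimiR. At P14 with scrambled antimiR, Chac1 had the smallest of the 9 (0.23). A tie between the element and the size of the effect was not tested. The element is in capitals.
Trib3 (chr2:152344028-152344057, + strand): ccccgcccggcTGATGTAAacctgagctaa
Asns (chr6:7693214-7693243, - strand): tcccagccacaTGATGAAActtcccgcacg
Chac1 (chr2:119351038-119351067, - strand): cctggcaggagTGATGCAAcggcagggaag
Atf3 (chr1:191183425-191183454, + strand): cgcggacttggTGATGCAAgtgcgagaagg
Read along the gene, the element began 14 bases after the gene start in Trib3 and 23, 193 and 110 bases before it in Asns, Chac1 and Atf3. In Trib3, Chac1 and Atf3 the printed element lies on the strand opposite to the gene, and in Asns on the same strand. No match lay in the promoter windows of Atf4, Atf5, Ddit3, Psat1 and Phgdh, which says only that these letters are not in these windows. Among other pathway genes with a promoter in the table, the element was present for 5 of 7 aminoacyl-tRNA synthetases, 2 of 6 amino acid transporters, 3 of 10 amino acid and one-carbon enzymes, 4 of 12 further ATF4 targets, 1 of 12 ER unfolded protein response genes, 0 of 10 genes of the eIF2α kinases and phosphatase and 0 of 8 mitochondrial protein quality genes.

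The target of the antimiR, miR-34a-5p (RefSeq), is shown with its seed, bases 2 to 8, in capitals.
mmu-miR-34a-5p (chr4:150068473-150068494, + strand): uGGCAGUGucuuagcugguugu
Its seed match, CACTGCC, was in none of the 13 probe sequences and in 250 of all 55681. Probes of 60 bases cover little of a transcript, so this says nothing of the transcripts themselves.

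With scrambled antimiR, 85% O2 raised all 9 genes at P5 and 8 of 9 at P14, where Chac1 was not called. At P5, 43.6% of all tested probes were called in either direction, 20.3% higher and 23.4% lower. At P14, 60.5% were called, 29% higher and 31.6% lower. The median log2 fold change of the 9 genes was 1.13 at P5 (0.32 to 2.17) and 0.98 at P14 (0.23 to 2.67), beside -0.03 and -0.05 over all tested probes. The mice of the oxygen groups did not overlap for 9 genes at P5 and 8 at P14, where 39.2% and 56.3% of all tested probes were apart in this way.

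**Figure D1:**
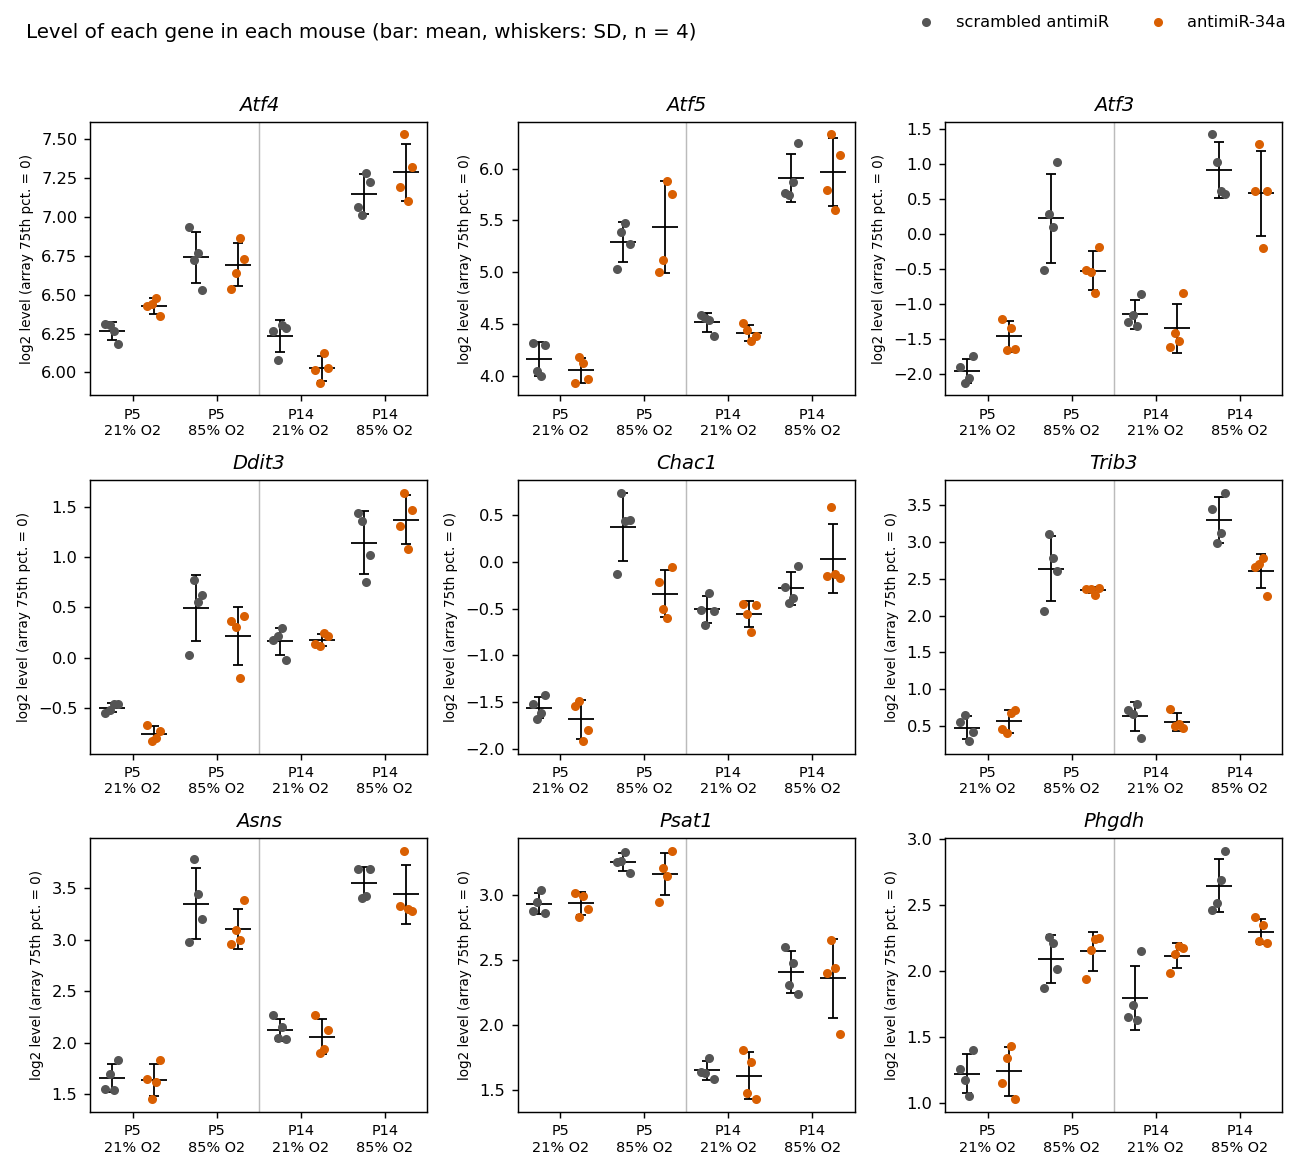
Log2 level of each gene (y axis, 75th percentile of the array at 0) in each mouse (points) of the 8 groups (x axis), with the mean and SD (n = 4). Trib3 lay between 0.30 and 0.80 in all 16 mice in 21% O2 and between 2.06 and 3.67 in all 16 mice in 85% O2, whereas Chac1 rose with 85% O2 at P5 and overlapped between oxygen levels at P14 with scrambled antimiR.

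Atf4 encodes the factor at the centre of the response, whose protein is set mainly by translation. Its level at P5 with scrambled antimiR was 6.31, 6.30, 6.27 and 6.19 in 21% O2 and 6.93, 6.72, 6.77 and 6.53 in 85% O2. At P14 it was 6.27, 6.08, 6.30 and 6.28 in 21% O2 and 7.06, 7.01, 7.28 and 7.22 in 85% O2. All mice in 85% O2 were above all mice in 21% O2 at both ages. The log2 fold change was 0.47 at P5 (standard error 0.08, adjusted p = 0.000473) and 0.91 at P14 (standard error 0.10, adjusted p = 3.3e-06). The second Atf4 probe gave 0.74 and 1.02, and was called at both ages.

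Atf5, a factor regulated like Atf4 at translation and tied to mitochondrial stress, lay at 4.00 to 4.32 in 21% O2 and 5.04 to 5.47 in 85% O2 at P5. It lay at 4.38 to 4.59 and 5.75 to 6.24 at P14. The groups were apart, with log2 fold changes of 1.13 (adjusted p = 0.000152) and 1.39 (adjusted p = 2.66e-06).

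Atf3, a factor induced both by ATF4 and as an immediate early gene, showed the widest spread between mice. At P5 it was -1.89, -2.12, -2.05 and -1.73 in 21% O2 and -0.52, 0.28, 0.10 and 1.03 in 85% O2. At P14 it was -1.25, -1.16, -1.31 and -0.85 in 21% O2 and 1.42, 1.03, 0.62 and 0.57 in 85% O2. Mice at the 2 oxygen levels did not overlap at either age. The log2 fold change was 2.17 at P5 (standard error 0.25, adjusted p = 1.05e-05) and 2.06 at P14 (standard error 0.28, adjusted p = 2.58e-05). Of 12 other immediate early genes, 8 were called higher at P5 (20.3% of all probes were) and 7 at P14 (29%), with 0 lower at either age, with Fosb at 1.57 and 1.50, Nr4a1 at 1.80 and 2.10, and Jun at 0.15 (not called) and 0.78. The P5 mouse in 85% O2 with the highest Atf3, replicate 4, also had the highest list level of these 12 genes. It was 0.61, where the other 3 lay between -0.14 and -0.05. The part of the immediate early genes in the Atf3 result was not tested.

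Ddit3 encodes CHOP. At P5 it was -0.55, -0.52, -0.46 and -0.46 in 21% O2 and 0.03, 0.77, 0.55 and 0.63 in 85% O2. At P14 it was 0.17, 0.21, 0.29 and -0.02, and 1.44, 1.36, 0.75 and 1.02. The oxygen groups were apart at both ages, and the log2 fold changes were close to 1, at 0.99 (adjusted p = 0.000121) and 0.98 (adjusted p = 6.29e-05). The array annotation gives no position for the Ddit3 probe, which is assigned by its transcript.

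Chac1, whose enzyme degrades glutathione, was the gene whose oxygen effect differed most between ages. At P5 it was -1.52, -1.68, -1.62 and -1.43 in 21% O2 and -0.12, 0.74, 0.44 and 0.45 in 85% O2, with no overlap. At P14 it was -0.51, -0.67, -0.33 and -0.52 in 21% O2 and -0.27, -0.44, -0.39 and -0.04 in 85% O2, where the groups overlapped. Its log2 fold change was 1.94 at P5 (standard error 0.17, adjusted p = 8.81e-07) and 0.23 at P14 (95% interval -0.11 to 0.56, adjusted p = 0.222). The difference of the oxygen effect between ages was -1.71 (standard error 0.23, adjusted p = 4.27e-06), where 40.1% of all probes were called. The level in 21% O2 was itself 1.05 higher at P14 than at P5 (adjusted p = 9.68e-06), and the mean in 85% O2 was -0.28 at P14 and 0.38 at P5, with overlapping mice.

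Trib3, a pseudokinase that binds ATF4 and CHOP and limits them, had the largest oxygen effect of the 9 genes at P14. At P5 it was 0.56, 0.65, 0.30 and 0.41 in 21% O2 and 2.06, 3.10, 2.78 and 2.61 in 85% O2. At P14 it was 0.71, 0.67, 0.80 and 0.34, and 3.44, 2.98, 3.12 and 3.67. No mouse of one oxygen level reached the other. The log2 fold change was 2.16 at P5 (standard error 0.16, 4.47-fold, adjusted p = 3.05e-07) and 2.67 at P14 (standard error 0.16, 6.37-fold, adjusted p = 1.41e-08). The difference between ages, 0.51, was not called (95% interval 0.04 to 0.99, adjusted p = 0.0796).

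The 3 amino acid enzymes rose to different extents. Asns, which makes asparagine, was 1.56, 1.70, 1.54 and 1.83 in 21% O2 and 2.97, 3.78, 3.44 and 3.20 in 85% O2 at P5, and 2.27, 2.05, 2.15 and 2.04, and 3.68, 3.40, 3.43 and 3.68 at P14. The groups were apart, with log2 fold changes of 1.69 (standard error 0.15, adjusted p = 1.18e-06) and 1.42 (standard error 0.13, adjusted p = 1.07e-06).

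Phgdh and Psat1 catalyse the first and the second step of serine synthesis. The brightest Phgdh probe gave log2 fold changes of 0.87 at P5 (adjusted p = 4.02e-05) and 0.85 at P14 (adjusted p = 4.24e-05), and the others gave 0.86 and 0.81 at P5 and 0.76 and 0.94 at P14, all called. Only 1 of the 3 probes lies on chromosome 3 of mm9 (98117215 to 98117274), where the gene is. The array annotation puts another on chromosome 8, though under the same RefSeq transcript as that probe. It puts the brightest on chromosome 17, under a transcript for which the RefSeq table used here gave no symbol. The counts of genes, the order of groups and the likeness given for Phgdh rest on that brightest probe. Psat1 was 2.88, 2.95, 3.04 and 2.86 in 21% O2 and 3.25, 3.26, 3.33 and 3.16 in 85% O2 at P5, and 1.64, 1.64, 1.75 and 1.59, and 2.60, 2.31, 2.48 and 2.24 at P14. Groups at 2 oxygen levels were apart on this probe, with log2 fold changes of 0.32 at P5 (adjusted p = 0.00491) and 0.75 at P14 (adjusted p = 0.000335). The second Psat1 probe had the opposite order, with 0.65 at P5 and 0.35 at P14, both called.

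**Figure D2:**
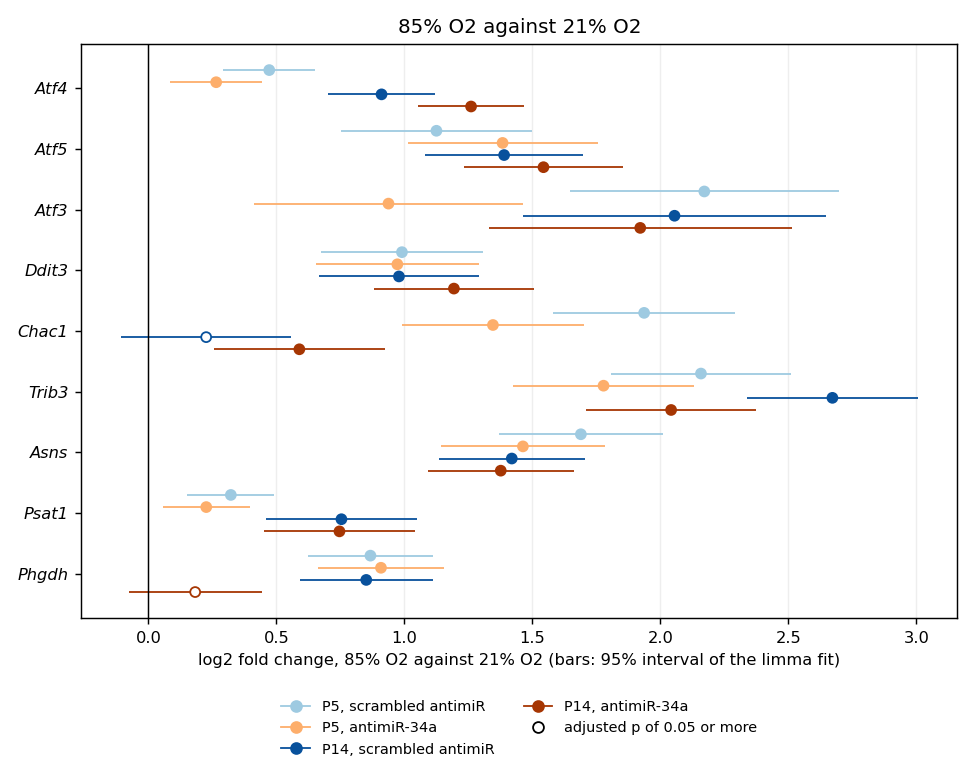
Log2 fold change of 85% O2 against 21% O2 (x axis) for each gene at both ages with either antimiR, with the 95% interval of the limma fit. Filled points passed an adjusted p of 0.05. All intervals lay above 0 except those of Chac1 at P14 with scrambled antimiR (0.23) and Phgdh at P14 with antimiR-34a (0.18).

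Between ages, the oxygen effect with scrambled antimiR was called different for 3 of the 9 genes, beside 40.1% of all probes. Beside Chac1 these were Atf4 (difference 0.44, standard error 0.13, adjusted p = 0.00733) and Psat1 (0.43, standard error 0.16, adjusted p = 0.0326), both larger at P14. The second Atf4 probe gave 0.28 and was not called (adjusted p = 0.215), and after quantile normalization the first gave 0.21 (adjusted p = 0.0940). The second Psat1 probe gave -0.31 (adjusted p = 0.199), and the first lost its call without any 1 of 6 mice with scrambled antimiR, with values from 0.37 to 0.43 (P5 replicate 3 in 21% O2 and 4 in 85% O2, and P14 replicates 2 and 4 in 21% O2 and 1 and 3 in 85% O2), with normexp background correction (0.32, adjusted p = 0.112) and without the first 4 arrays that stood apart (0.42, adjusted p = 0.0996). The Trib3 difference was called with the 75th percentile of the array as a covariate (0.61, adjusted p = 0.0336), and without replicate 2 of P5 in 85% O2 (0.67, adjusted p = 0.0193) or replicate 2 of P14 in 85% O2 (0.62, adjusted p = 0.0373). Over the other 6 genes the differences ran from -0.27 to 0.51.

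In mice in 21% O2 with scrambled antimiR, 5 of the 9 genes were called higher and 1 lower at P14 than at P5, beside 51.1% of all probes called, 28.7% higher and 22.4% lower. Mice of the ages were apart for 7 genes, beside 48.5% of all probes. Chac1 was higher by 1.05, Atf3 by 0.80 (adjusted p = 0.0153), Ddit3 by 0.66 (adjusted p = 0.000705) and Asns by 0.47 (adjusted p = 0.00846). Phgdh was higher by 0.57 on the brightest probe only, while the other probes gave 0.06 and 0.05. Psat1 fell by 1.28 (adjusted p = 1.58e-09), and its second probe fell by 0.52 (adjusted p = 0.00191). Atf4 at -0.03, Trib3 at 0.15 and Atf5 at 0.35 were not called. Atf3 lost its call without scrambled antimiR replicate 4 of P14 (0.71, adjusted p = 0.0509), without the first 4 arrays that stood apart (0.78, adjusted p = 0.0991) and without all 7 (0.78, adjusted p = 0.103). In the same comparison, 8 of the 12 other immediate early genes were higher at P14 and 0 lower (median 0.68). Proliferation markers were lower in 9 of 9 tested (median -2.01), and adipocyte markers were higher in 7 of 7 tested (median 2.82), thymus markers in 6 of 8 and lung epithelial markers in 7 of 8. Red blood cell markers were lower in 4 of 8. The part of these changes in the age differences was not tested.

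Over the 8 group means, the order of levels separated the oxygen levels in most genes. For Trib3, the 4 groups in 21% O2 (means 0.48 to 0.63) overlapped among themselves, and the 4 groups in 85% O2 (means 2.35 to 3.30) overlapped with their neighbours in the order. For Asns, Atf5 and Atf3, every group in 85% O2 also had a higher mean than every group in 21% O2. Psat1 was ordered by age. On its brightest probe all 4 P5 groups (means 2.93 to 3.25) lay above all 4 P14 groups (1.61 to 2.41), and mice of the highest P14 group were all below those of the lowest P5 group. On the second probe the means had the same order by age, but mice of the highest P14 group (-2.30 to -2.06) overlapped with those of the lowest P5 group (-2.29 to -1.78). For Chac1, the P14 groups in 21% O2 (means -0.55 and -0.51) overlapped with the next group in the order, P5 in 85% O2 with antimiR-34a (-0.34).

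As a description over the 8 group means, which share slides in pairs, Pearson correlations between Asns, Trib3, Atf3 and Atf5 lay between 0.951 and 0.977, whereas those of Psat1 with the other 8 genes lay between -0.228 and 0.331. The 3 genes most like Trib3 were Serpina3g, Slc7a11 and Dnttip2 (r from 0.991 to 0.994). For Asns they were Mgst1, 2310030G06Rik and Pmaip1 (0.996), for Chac1 Mrpl3, Eif2b3 and Dctn2 (0.979 to 0.991), and for Ddit3 Kat8, Gpr160 and Junb (0.993 to 0.997). For Atf3 they were Rnf19a, Stxbp3-ps and Usp30 (0.990 to 0.995), for Atf4 2610001J05Rik, Rapgef1 and Sat1 (0.993 to 0.995), and for Atf5 Tspo, Tbxas1 and Map2k2 (0.996 to 0.997). For Phgdh they were Gm6756, 9030404E10Rik and Chmp4c (0.981 to 0.993). With 8 means and 39159 probes, high values of r were at hand for each gene given.

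Other genes of the pathway were read from fixed lists, on the brightest probe of each gene, and each count is to be read beside the shares of all probes called higher (20.3% at P5, 29% at P14) and lower (23.4% and 31.6%). Of 13 tested further ATF4 target genes, 9 were called higher in 85% O2 at P5 (0 lower) and 11 at P14 (2 lower), with medians of 0.51 and 0.98. Gdf15, a secreted stress cytokine, had log2 fold changes of 4.81 and 5.02, Tnfrsf10b, a death receptor, 2.17 and 2.40, and Stc2, a secreted glycoprotein, 0.66 and 1.89. Gdf15 and Tnfrsf10b are also known targets of p53. Of 9 amino acid transporters, 7 were higher at P5 (1 lower) and 6 at P14 (2 lower). Slc7a11, the cystine carrier, had 3.41 and 4.30, its partner Slc3a2 0.87 and 1.40, and the glutamine carrier Slc1a5 0.77 and 1.62. Slc7a11 is also a known target of NRF2.

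Of 12 further enzymes of amino acid and one-carbon metabolism, 5 were called higher at P5 (2 lower) and 8 at P14 (1 lower). Cbs, which makes cystathionine, had 0.77 and 1.28, Got1, which makes aspartate, 0.86 and 1.36, and the mitochondrial folate enzyme Mthfd1l 0.02 (not called) and 0.91. Of 12 aminoacyl-tRNA synthetases, which load amino acids onto tRNA, 6 were higher at P5 (1 lower) and 8 at P14 (0 lower), with Sars at 0.52 and 1.30, Aars at 0.40 and 0.91 and Cars at 0.47 and 0.66. Changes in this list were smaller than in the transporters, with medians of 0.25 and 0.41 beside 0.55 and 0.90, a difference that was not tested.

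Upstream, 6 of 12 genes of the eIF2α kinases, the eIF2 and eIF2B subunits and the eIF2α phosphatase were called higher at P5 and 9 at P14, and 0 lower. Ppp1r15a, a regulatory subunit of the phosphatase that reverses eIF2α phosphorylation, had 0.19 (not called) and 1.12, the amino acid sensing kinase Eif2ak4 0.37 and 0.53, and Eif2b1 0.09 (not called) and 0.48. Of 15 genes of the other branches of the ER unfolded protein response, 2 were higher at P5 (6 lower) and 5 at P14 (3 lower), beside 20.3% of all probes higher and 23.4% lower at P5 and 29% and 31.6% at P14, with medians of -0.01 and 0.09. Ern1, the sensor IRE1, had 0.27 (not called) and 1.17, Atf6 0.62 and 0.55, and Dnajb9, an ER cochaperone, 0.07 (not called) and -0.69. Hspa5, the main ER chaperone, named here after its values were seen, fell by 0.37 at P5 (adjusted p = 0.000529) and had 0.09 at P14 (adjusted p = 0.422). Of 10 mitochondrial protein quality genes, 5 were higher at P5 (1 lower) and 6 at P14 (1 lower). The mitochondrial chaperone Hspa9 had 0.90 and 1.55, the protease Lonp1 0.26 and 0.60, and the protease subunit Clpp 0.48 and 0.97.

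**Figure D3:**
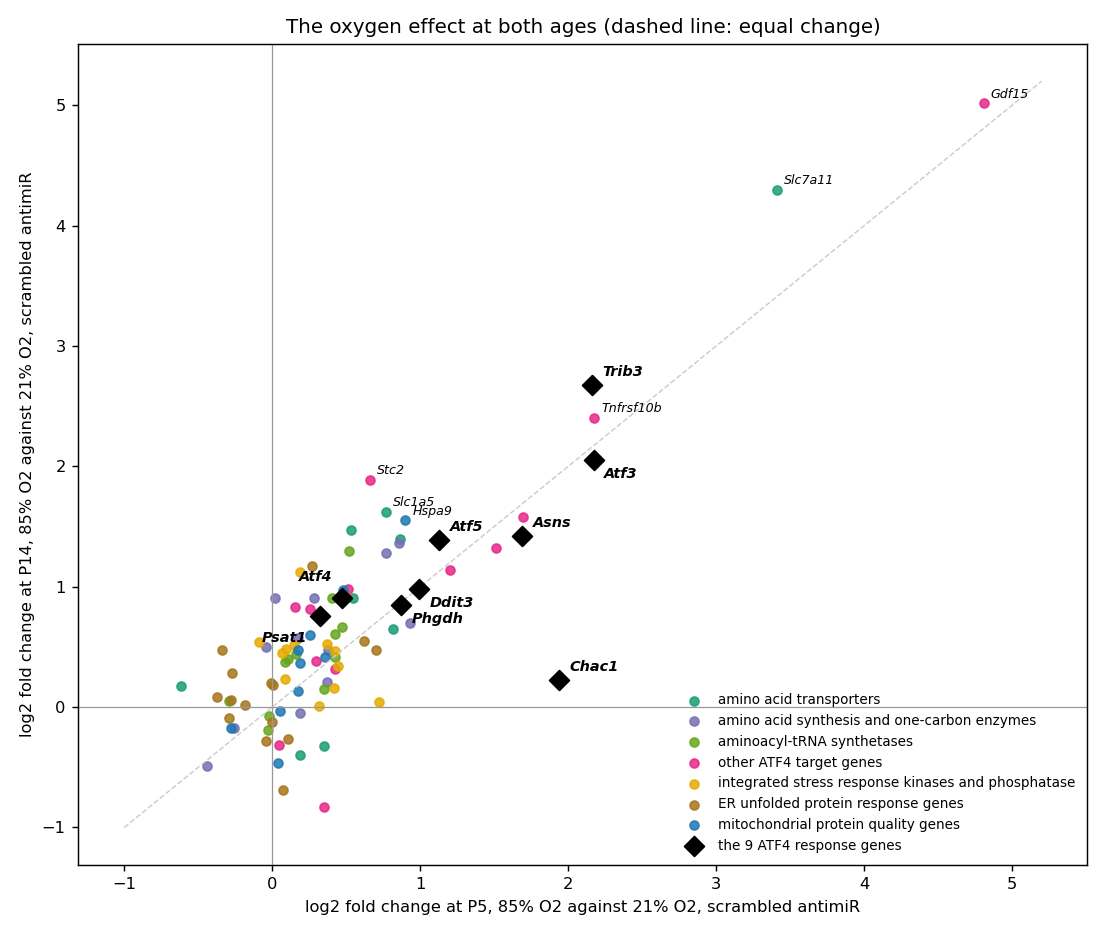
Log2 fold change of 85% O2 against 21% O2 with scrambled antimiR at P5 (x axis) and P14 (y axis) for the 9 genes (black diamonds) and the genes of 7 pathway lists (points), with list genes above 1.5 at P14 named from those the text gives. Chac1 lies far below the line of equal change (1.94 and 0.23), and Gdf15 and Slc7a11 lie farthest out.

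Marker mRNA of cell states and of other cell types differed between oxygen levels too. Of 9 tested proliferation markers, 9 were lower in 85% O2 at P5, where 23.4% of all probes were lower, and 3 at P14, close to the 31.6% of all probes, with Cdk1 at -1.51 and -0.93. Skeletal muscle markers were lower in 4 of 8 at P5 and 5 of 8 at P14, heart muscle markers in 6 and 5 of 8, and adipocyte markers in 2 of 5 tested at P5 and 7 of 7 at P14. Red blood cell markers were lower in 3 of 8 and 4 of 7, and thymus markers in 1 of 6 and 5 of 8. None of these markers was called higher. Of 8 neutrophil markers, 2 were lower at P5 (0 higher), and 2 higher and 1 lower at P14. The neutrophil counts and the thymus count at P5 were near or below the shares of all probes. Of 8 lung epithelial markers, 3 were higher at P5 (1 lower) and 4 at P14 (1 lower). The part of these changes in the results above was not tested. Without the first 4 arrays that stood apart, and without all 7, the oxygen comparison with scrambled antimiR called 9 of the 9 genes at P5 and 8 at P14, beside 40% and 43.9% of all probes at P5 and 48.2% and 47.8% at P14. With antimiR-34a it called 9 and 8 genes at P5 (46.4% and 50.1% of all probes) and 8 in both at P14 (63.1% and 56.8%).

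In antimiR-34a mice, 9 of 9 genes were called higher in 85% O2 at P5 and 8 at P14. Of all probes, 46% were called at P5 (19.7% higher) and 65.1% at P14 (29.2% higher). At P5 the log2 fold changes ran from 0.23 for Psat1 to 1.78 for Trib3, and 8 genes were apart between oxygen levels (41.6% of all probes were), all but Psat1 on its brightest probe. The second Psat1 probe was called and apart (0.56, adjusted p = 0.0020). The call on the brightest probe (adjusted p = 0.0314) was lost without replicate 2 or 4 in 21% O2 or replicate 2 or 4 in 85% O2 (0.17 to 0.21). It was also lost with quantile normalization (0.16, adjusted p = 0.0862), the authors' processed values (adjusted p = 0.0863), no filter on dim probes (0.0597), only the compared groups (0.0791) and the methods' t-test (0.127). The Atf4 call (0.26, adjusted p = 0.0185) was lost without replicate 4 in 21% O2 (0.24, adjusted p = 0.0509) or replicate 3 in 85% O2 (0.21, adjusted p = 0.0522), without all 7 arrays that stood apart (0.21, adjusted p = 0.0546) and by the methods' t-test (0.0665). The second Atf4 probe was called and apart (0.53, adjusted p = 0.000355). At P14 the log2 fold changes with antimiR-34a ran from 0.18 for Phgdh to 2.04 for Trib3, and all 9 genes were apart (58.9% of all probes). Chac1, not called at P14 with scrambled antimiR, was -0.45, -0.55, -0.75 and -0.47 in 21% O2 and -0.15, 0.59, -0.13 and -0.17 in 85% O2 with antimiR-34a (0.59, adjusted p = 0.0042). Without replicate 2 in 85% O2, the highest mouse, it was 0.41 and still called, and by the methods' t-test it was not called (adjusted p = 0.0698). Phgdh was not called at P14 with antimiR-34a on 2 of 3 probes (0.18 and 0.19), of which the first, the brightest, was called with the 75th percentile as a covariate (0.17, adjusted p = 0.0352), and was called on the third (0.46, adjusted p = 0.000338). Psat1 at P14 with antimiR-34a was called on its brightest probe (0.75) and not on the other (0.18, adjusted p = 0.271). The test of the difference between the antimiRs called neither gene, with 0.36 for Chac1 (adjusted p = 0.444) and -0.67 for Phgdh (adjusted p = 0.137). The Phgdh difference was called without the first 4 arrays that stood apart (-0.82, adjusted p = 0.00625, where 13.9% of all probes were called), without all 7 (-0.79, adjusted p = 0.0309, 10.2% of all probes), without replicate 4 of P14 in 21% O2 with scrambled antimiR (-0.79, adjusted p = 0.0303) and with array weights (-0.70, adjusted p = 0.00863).

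Marker counts in the oxygen comparisons with antimiR-34a are to be read beside the shares of all probes called. These were 46% at P5 (19.7% higher, the rest lower) and 65.1% at P14 (29.2% higher, the rest lower). Several counts given here were near or below these shares, among them those of skeletal and heart muscle at P5 and of proliferation at P14. Proliferation markers were lower in 9 of 9 tested at P5 and 2 of 9 at P14, and adipocyte markers in 1 of 5 at P5 and 7 of 7 at P14 (median -6.10). Thymus markers were lower in 2 of 6 at P5 and 5 of 8 at P14 (1 higher), and red blood cell markers in 4 of 8 and 3 of 7. Heart muscle markers were lower in 2 and 4 of 8, and skeletal muscle markers in 1 and 3 of 8. Of the 12 other immediate early genes, 3 were higher and 2 lower at P5, and 11 were higher at P14 (median 1.22). The part of these changes in the results with antimiR-34a was not tested.

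Compared directly, antimiR-34a and scrambled antimiR differed by limma in 0 of the 9 genes at P5 in 21% O2, 0 at P5 in 85% O2, 0 at P14 in 21% O2 and 1 at P14 in 85% O2. The shares of all tested probes called were 0.128%, 0.0917%, 0% and 2.49% (1.52% lower). Over the alternatives that left out no single mouse, these shares ran from 0% to 2.08%, 7.53%, 28.4% and 3.45%. At an unadjusted p under 0.05, 6020, 4679 and 4163 probes passed in the first 3 comparisons, of 35981 at P5 and 38452 at P14. Log2 fold changes of the 9 genes lay between -0.26 and 0.49, -0.74 and 0.15, -0.21 and 0.32, and -0.70 and 0.32, with medians of 0.00, -0.24, -0.07 and -0.05. Every mouse of one antimiR lay on 1 side of the other antimiR for 3 genes at P5 in 21% O2 (Atf3, Atf4 and Ddit3), where 14.7% of all probes were apart, and for 2 at P14 in 85% O2 (Trib3 and Phgdh), where 9.48% were. It did so for 0 genes at P5 in 85% O2 (5.65% of all probes) and 0 at P14 in 21% O2 (5.12%). The test of a difference in oxygen effect between the antimiRs called 0 genes at either age, beside 0.0556% of all probes at P5 (3910 at an unadjusted p under 0.05) and 0.0702% at P14 (5743). Over the same alternatives these shares ran from 0.0111% to 0.17% and from 0% to 15%.

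The gene called was Trib3 at P14 in 85% O2, which was 3.44, 2.98, 3.12 and 3.67 with scrambled antimiR and 2.66, 2.70, 2.78 and 2.26 with antimiR-34a. Every antimiR-34a mouse was below every scrambled antimiR mouse, and all of them were above the mice in 21% O2 (0.34 to 0.80). Its log2 fold change was -0.70 (standard error 0.16, adjusted p = 0.0309). The call was lost without scrambled antimiR replicate 1 or 4 or antimiR-34a replicate 1 or 4 (adjusted p = 0.0680, 0.0807, 0.0518 and 0.0865), under 6 of the other settings tried, and without all 7 arrays that stood apart (-0.59, adjusted p = 0.140). Replicate 4 with antimiR-34a, the lowest in Trib3, carried adipocyte mRNA (1.72) and heart muscle mRNA (list level 1.02, the others -1.99 to -0.63). Neutrophil markers were lower with antimiR-34a in 2 of 8 (median -0.80), with list levels of -1.09 to -0.33 beside -0.41 to 0.56. The part of these marker changes in the Trib3 result was not tested. The difference of the oxygen effect between the antimiRs was -0.63 (95% interval -1.10 to -0.16, adjusted p = 0.233), and at P5 it was -0.38 (adjusted p = 0.581).

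Phgdh at P14 in 85% O2 was 2.46, 2.52, 2.69 and 2.91 with scrambled antimiR and 2.41, 2.23, 2.35 and 2.21 with antimiR-34a. The groups were apart, and the log2 fold change of -0.35 was not called (adjusted p = 0.160), as were -0.35 and -0.30 on the other probes (adjusted p = 0.117 and 0.0824). At P5 in 85% O2, Chac1 was -0.12, 0.74, 0.44 and 0.45 with scrambled antimiR and -0.21, -0.50, -0.60 and -0.05 with antimiR-34a. Only scrambled antimiR replicate 1 lay among the antimiR-34a mice. Its log2 fold change was -0.72 (95% interval -1.07 to -0.36, adjusted p = 0.130), and -0.88 without that mouse (adjusted p = 0.0473). Atf3 in the same groups was -0.52, 0.28, 0.10 and 1.03, and -0.51, -0.54, -0.84 and -0.18, a log2 fold change of -0.74 (95% interval -1.27 to -0.22, adjusted p = 0.240). The remaining immediate early genes showed 0 of 12 called there. At P14 in 85% O2, 3 of 12 were called higher with antimiR-34a, Egr1 (1.27), Zfp36 (0.81) and Btg2 (0.69), which are named after their values were seen. Of all probes, 2.49% were called there in either direction, 1.52% lower.

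**Figure D4:**
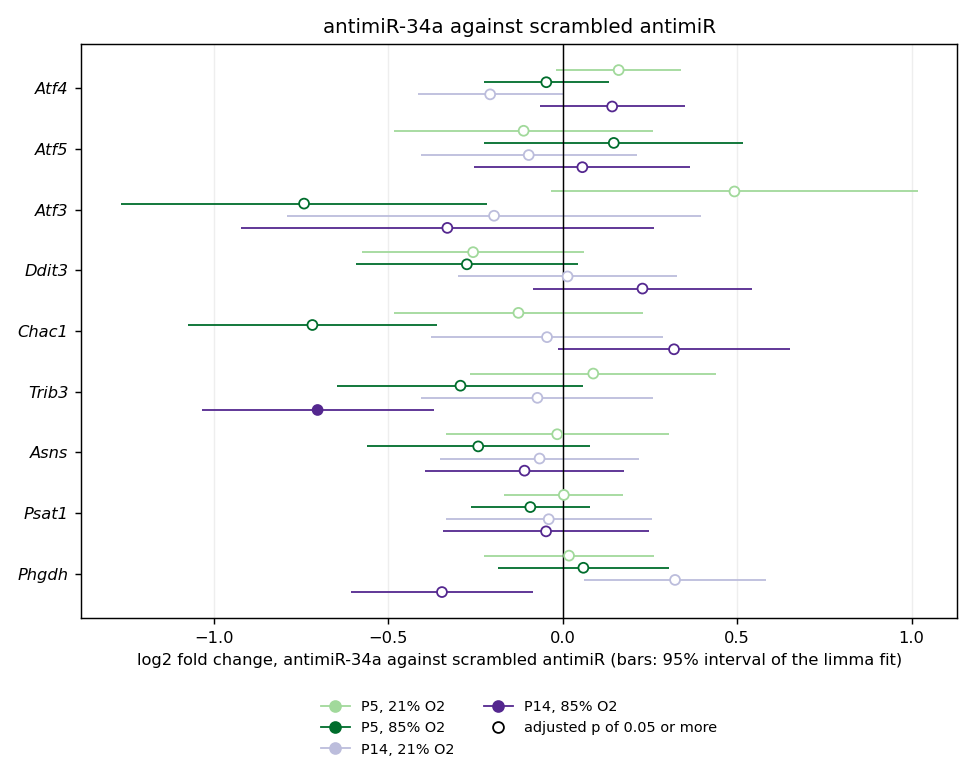
Log2 fold change of antimiR-34a against scrambled antimiR (x axis) for each gene in the 4 combinations of age and oxygen level, with the 95% interval of the limma fit. Filled points passed an adjusted p of 0.05, and the one filled point is Trib3 at P14 in 85% O2 (-0.70).

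Single mice were low or high in several of the 9 genes at once, and 8 of the 16 mice in 85% O2 were the lowest or the highest of their group in at least 5 genes. In 85% O2 at P5 with scrambled antimiR, replicate 1 was the lowest of 4 mice in 7 genes, with a mean deviation from the group of -0.33, and replicate 2 the highest in 5 (0.21). In 85% O2 with antimiR-34a, replicate 4 was the highest in 7 genes at P5 (0.19) and replicate 2 in 7 genes at P14 (0.32). The other mice in 85% O2 that were lowest or highest in 5 genes were replicate 1 at P5 with antimiR-34a (-0.10), replicates 2 and 4 at P14 with scrambled antimiR (-0.09 and 0.09) and replicate 4 at P14 with antimiR-34a (-0.10). Replicate 3 at P14 with antimiR-34a was lowest in 4 genes (-0.18). In 21% O2, 4 mice were the lowest or the highest in 5 genes, and the mean deviations of the 16 mice lay between -0.07 and 0.07. The 75th percentile of the array of P5 replicate 1 was 9.53 on the log2 scale, beside 9.77 to 9.92 in the rest of its group, and that of P14 antimiR-34a replicate 2 was 9.59, beside 9.53 to 9.56. The part of array brightness in these deviations was not tested. How often each mouse was lowest or highest over all probes was not counted. A shift of the 9 genes and one of the whole array thus cannot be told apart here. Without the P14 antimiR-34a replicate 2, the oxygen comparison with antimiR-34a at P14 called 8 of the 9 genes (61.8% of all probes), and without the P5 replicate 1 the comparison with scrambled antimiR at P5 called 9 (45.4%).

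**Figure D5:**
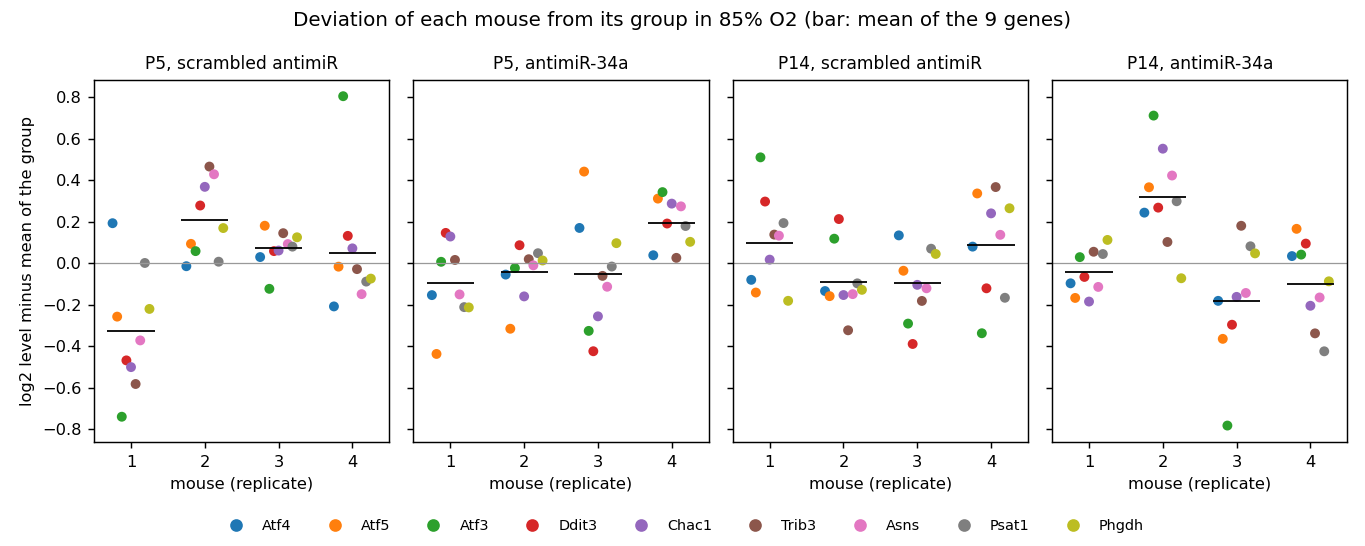
Log2 level of each gene minus the mean of its group (y axis) in each of the 16 mice in 85% O2 (x axis, 4 mice per group), coloured by gene, with the mean of the 9 genes as a bar. Replicate 1 at P5 with scrambled antimiR lies low in most genes (mean -0.33) and replicate 2 at P14 with antimiR-34a lies high (mean 0.32).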

How the data were processed

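Lung RNA of 32 mice was hybridised to one-colour Agilent arrays, and the deposited scanner files hold spot intensity values made with Agilent Feature Extraction 10.7.3.1 (per the submitters' processing notes), with probe positions on mm9. The series table that the authors deposited holds processed log2 values of the same arrays (r of at least 0.997 with the values used here) and served as an alternative. From the processed intensity, log2 values were taken minus the 75th percentile of each array, outlier spots (0.211%) were left out and spots of a probe averaged. Testing was limited to probes that some group had well above background in all 4 of its mice, which left 35981 probes at P5, 38452 at P14 and 39159 over both ages. Tests used limma (version 3.58.1) under R version 4.3.3 with 1 mean per group over the 16 arrays of an age, or over all 32 for comparisons between ages. The number of arrays limits the precision, and p-values measure the spread between mice of a group.

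The 9 genes, the pathway and marker lists and the tests were chosen with earlier results of these data known. All 9 genes were reported, on their brightest probe, and from each pathway list the 3 genes with the smallest p for 85% O2 at P14 with scrambled antimiR were named. Of the marker lists and of antimiR effects that were not called, examples were named after their values were seen. Alternatives were normexp background correction (offset 50), quantile normalization, other filters on dim probes, only the compared groups, the methods' t-test, the replicate number as a block, the 75th percentile as a covariate, array weights, other probes, and leaving out single arrays or the 4 that stood apart. Leaving out 3 further arrays that stood apart was added after seeing the data. The genes most like Psat1 are not reported here. The limma step was tested on simulated data. Promoter and miRNA sequences came from RefSeq (GRCm38.p6), and mm9 and GRCm38.p6 positions were not joined.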

Additional observations from a re-analysis of the deposited data

Results flagged for a closer look

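Over 9 genes and 8 groups, 5 of 72 sets of values held a single mouse at a distance from the rest, and chance gives about 1 in 20. At P14 in 85% O2 with antimiR-34a, replicate 2 stood high for Asns (3.86, the others 3.27 to 3.32) and for Chac1 (0.59, the others -0.17 to -0.13). At P5 in 85% O2 with antimiR-34a, replicate 3 stood low for Ddit3 (-0.21, the others 0.31 to 0.41) and for Trib3 (2.28, the others 2.36 to 2.37). Its array was the dimmest of the group, with a 75th percentile of 9.01 on the log2 scale beside 9.55 to 9.71, and the part of brightness was not tested. Atf4 was 6.08 in replicate 2 at P14 in 21% O2 with scrambled antimiR, the others 6.27 to 6.30.

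The oxygen effect with scrambled antimiR differed between P14 and P5 by the limma test of that difference for Chac1 (-1.71), Atf4 (0.44) and Psat1 (0.43), beside 40.1% of all probes. On the other probes Atf4 gave 0.28 and Psat1 -0.31, neither called. Age, slide and the level in 21% O2 differ together in this comparison and cannot be told apart.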

How the results depend on the processing

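Among the 9 genes, 85% O2 with scrambled antimiR called 9 at P5 and 8 at P14 under every alternative run, and with antimiR-34a 7 to 9 at both ages. One value reversed, the difference of the oxygen effect on Psat1 between ages, which was -0.31 on the other probe. Trib3 at P14 in 85% O2, the 1 gene called between antimiRs, was not called (0 of 9) with normexp (adjusted p = 0.109), without a filter on dim probes (0.0571), with only the groups compared (0.132), by the methods' t-test (0.348), with array weights (0.0505), with the replicate block (0.0568) and without 3 further arrays that stood apart, an alternative chosen after seeing the data (0.140). Its adjusted p over the alternatives that kept the same arrays ran down to 0.0209, and leaving out single mice gave 0 to 1 genes and log2 fold changes from -0.81 to -0.58. At P5 in 85% O2, 1 gene (Chac1) was called between antimiRs without a filter on dim probes, and 0 to 1 leaving out single mice (1 without scrambled antimiR replicate 1). At P14 in 21% O2, 1 gene (Phgdh) was called with array weights and without the arrays that stood apart, and 0 to 1 leaving out single mice. The difference of the oxygen effect between antimiRs at P14 also called 1 gene (Phgdh) under these settings and without the 3 further arrays, and 0 to 1 leaving out single mice (1 without P14 scrambled antimiR replicate 4 in 21% O2 in both comparisons). The cause was not tested. The methods' t-test called 0 probes in each of the 4 comparisons of antimiRs after adjustment. The share of all probes called for 85% O2 at P5 with scrambled antimiR ran from 25.6% without a filter to 53%, and that between antimiRs at P14 in 21% O2 from 0% to 28.4% (array weights). Same-numbered mice did not deviate together in every pair (r from -0.35 to 0.50, the own number best in 10 of 36), and the replicate block moved no other count of called genes by over 1.5 times.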
